A study of Mus musculus with 11 samples.

Results

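The immunoglobulin heavy chain variable (Ighv) genes of the lacrimal gland were examined in male NOD mice, a strain in which males spontaneously develop autoimmune inflammation of this tear-producing gland. All genes of the main count table whose symbol begins with Ighv were taken, which gave 92 of 19058 genes. The mice were 3 WT, 5 *Tlr7* KO and 3 *Ifnar1* KO animals, all on the NOD/ShiLtJ background, with whole-tissue RNA of 1 gland per mouse and 1 library per gland. The study addressed which genes of the inflamed gland depend on the RNA sensor TLR7 and which on IFNAR1, a chain of the type I interferon receptor. WT and *Tlr7* KO mice were 20 to 22 weeks old, and no age for the *Ifnar1* KO mice is given in the sources used here. The *Tlr7* KO line carried a 2 base-pair CRISPR/Cas9 deletion made in NOD embryos, and the *Ifnar1* KO line was homozygous for an edited *Ifnar1* allele, so each knockout stood for a single edited allele carried in all cells of the animal. The authors left out a further *Ifnar1* KO mouse because its library clustered with WT and its gland was as inflamed as in WT mice, so this group was chosen with its expression and histology known.

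A B cell assembles its heavy chain gene by joining 1 variable gene to a diversity and a joining segment, and the joined variable gene is then transcribed with the constant gene downstream of it. The variable exon encodes most of the antigen-binding face of the heavy chain, including its first and second hypervariable loops, and each B cell clone passes its choice on to the plasma cells that descend from it. Plasma cells hold much more immunoglobulin RNA than B cells, and the lacrimal gland normally houses plasma cells that make IgA for tears.

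The 92 members fell into 14 families by the number in their symbol, of which family 1 was the largest with 47 members and families 4, 11, 12 and 15 had a single member each. All 92 lie on chromosome 12 (GRCm38, chr12:113578504-116000461 from the first to the last member), and 0 are annotated as pseudogenes. *Ighv1-13*, with 6 counts in all mice, is the exception in being annotated on the plus strand, the other 91 lying on the minus strand. Their annotated exons add up to 294 to 480 bases, with a median of 352 bases, of which the variable exon makes up most. Variable exons were alike within a family, with a median identity of 85.6% over 1177 pairs, and less alike between families, at 61.0% over 3009 pairs. For 54 members an annotated Ighv gene with at least 95% identity existed, so reads could be split between such genes and the value of a single member is uncertain to that extent. The reference was C57BL/6J sequence and not NOD sequence, and the effect of that on single members was not tested.

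The variable exons of 4 pairs of family members are shown, because the 2 members of each pair differed in their pattern across the mice. Sequences are the first 300 bases of the annotated variable exon (GENCODE M21, GRCm38, minus strand), read 5′ to 3′, and capitals mark the bases that differ from the other member of the pair, position by position. *Ighv6-3* (chr12:114391722-114392021) and *Ighv6-6* (chr12:114434799-114435098) differed at 21 bases. *Ighv9-1* (chr12:114093933-114094232) and *Ighv9-3* (chr12:114140697-114140996) differed at 19 bases. *Ighv5-16* (chr12:113838533-113838832) and *Ighv5-17* (chr12:113859154-113859453) differed at 51 bases. *Ighv2-6-8* (chr12:113796142-113796441) and *Ighv2-3* (chr12:113611188-113611487) differed at 14 bases.
Ighv6-3: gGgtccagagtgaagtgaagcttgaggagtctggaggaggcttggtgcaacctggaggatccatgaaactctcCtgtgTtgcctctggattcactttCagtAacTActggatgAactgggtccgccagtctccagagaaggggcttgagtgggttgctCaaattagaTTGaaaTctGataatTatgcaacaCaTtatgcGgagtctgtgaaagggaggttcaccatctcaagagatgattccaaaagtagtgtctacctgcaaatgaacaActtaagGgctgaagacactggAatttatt
Ighv6-6: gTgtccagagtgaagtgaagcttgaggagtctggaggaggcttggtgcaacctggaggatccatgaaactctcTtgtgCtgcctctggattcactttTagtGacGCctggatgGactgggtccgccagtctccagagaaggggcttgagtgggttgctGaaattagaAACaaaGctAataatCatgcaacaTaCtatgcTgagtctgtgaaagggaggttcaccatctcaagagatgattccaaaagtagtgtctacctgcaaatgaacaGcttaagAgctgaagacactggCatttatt
Ighv9-1: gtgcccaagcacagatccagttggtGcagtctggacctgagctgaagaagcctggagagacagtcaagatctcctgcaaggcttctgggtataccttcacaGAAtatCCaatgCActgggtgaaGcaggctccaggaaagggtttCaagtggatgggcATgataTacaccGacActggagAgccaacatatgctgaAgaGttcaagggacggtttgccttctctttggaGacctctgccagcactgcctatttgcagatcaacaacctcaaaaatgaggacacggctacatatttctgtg
Ighv9-3: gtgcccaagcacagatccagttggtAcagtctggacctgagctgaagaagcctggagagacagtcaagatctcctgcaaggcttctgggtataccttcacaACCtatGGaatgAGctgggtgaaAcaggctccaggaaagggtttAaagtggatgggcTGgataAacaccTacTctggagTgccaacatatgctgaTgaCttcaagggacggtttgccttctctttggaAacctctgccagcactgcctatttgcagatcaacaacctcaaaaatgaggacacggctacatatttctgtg
Ighv5-16: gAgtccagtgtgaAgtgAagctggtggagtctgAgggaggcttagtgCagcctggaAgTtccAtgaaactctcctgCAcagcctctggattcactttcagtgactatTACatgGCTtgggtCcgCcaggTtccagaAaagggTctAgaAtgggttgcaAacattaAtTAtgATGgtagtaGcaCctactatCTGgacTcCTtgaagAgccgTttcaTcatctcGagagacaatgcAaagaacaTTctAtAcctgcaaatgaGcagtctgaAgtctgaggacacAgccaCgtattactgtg
Ighv5-17: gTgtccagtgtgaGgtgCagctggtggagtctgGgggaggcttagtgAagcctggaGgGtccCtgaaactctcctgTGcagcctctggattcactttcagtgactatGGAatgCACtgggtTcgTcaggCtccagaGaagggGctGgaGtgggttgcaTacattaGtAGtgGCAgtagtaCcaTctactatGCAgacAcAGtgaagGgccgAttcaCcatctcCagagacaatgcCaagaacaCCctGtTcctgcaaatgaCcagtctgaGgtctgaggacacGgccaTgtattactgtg
Ighv2-6-8: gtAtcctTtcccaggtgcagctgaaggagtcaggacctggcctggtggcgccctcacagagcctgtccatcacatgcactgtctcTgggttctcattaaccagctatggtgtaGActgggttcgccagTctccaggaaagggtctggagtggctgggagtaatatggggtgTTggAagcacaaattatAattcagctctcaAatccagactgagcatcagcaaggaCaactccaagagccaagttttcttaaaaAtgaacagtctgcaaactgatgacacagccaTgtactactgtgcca
Ighv2-3: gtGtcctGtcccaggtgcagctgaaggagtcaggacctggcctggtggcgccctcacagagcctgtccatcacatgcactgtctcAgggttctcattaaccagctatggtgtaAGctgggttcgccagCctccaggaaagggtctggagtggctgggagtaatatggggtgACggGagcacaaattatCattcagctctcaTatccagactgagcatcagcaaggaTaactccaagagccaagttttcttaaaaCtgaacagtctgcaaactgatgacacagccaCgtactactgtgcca

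Libraries held 20512315 to 28814250 counts, and the Ighv genes took 1899 to 12180 of them per mouse. Levels are CPM, the counts of a gene relative to the library total after TMM scaling. Lacrimal gland epithelial markers summed to 1374 to 1688 CPM in WT, 1787 to 1877 CPM in *Tlr7* KO and 1853 to 1953 CPM in *Ifnar1* KO mice, with 7 of 8 markers in the table. Of the 4 salivary gland genes in the table, *Pip* was high in all libraries, at 8597 to 19080 CPM. The other 3, *Amy1*, *Bpifa2* and *Smr3a*, were set apart after their values were seen and summed to 3089 CPM in WT 3, 221 CPM in *Ifnar1* KO 1 and 2716 CPM in *Ifnar1* KO 2, and to no more than 3.51 CPM in the other 8 libraries. Skeletal muscle genes summed to 268 CPM in WT 1, 194 CPM in WT 2 and 193 CPM in *Tlr7* KO 4, and to no more than 7.48 CPM elsewhere. *Tlr7* was at 0.776 ± 0.175 CPM (SD, n = 5) in *Tlr7* KO and 2.39 ± 0.746 CPM (SD, n = 3) in WT mice, and *Ifnar1* at 9.02 ± 0.625 CPM (SD, n = 3) in *Ifnar1* KO and 13.5 ± 2.53 CPM in WT mice. *Tlr7* RNA was also low in *Ifnar1* KO mice (0.563 ± 0.289 CPM), and since a 2 base-pair deletion need not remove the transcript, these levels do not check the labels.

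Ighv transcripts were 2.01-fold less abundant in *Tlr7* KO than in WT glands, whereas *Ifnar1* KO glands overlapped with WT. The 92 members summed to 348, 255 and 333 CPM in the 3 WT mice. They summed to 189, 169, 154, 165 and 99.6 CPM in the 5 *Tlr7* KO mice and to 216, 398 and 232 CPM in the 3 *Ifnar1* KO mice. Every *Tlr7* KO mouse lay below every WT and every *Ifnar1* KO mouse, and *Ifnar1* KO 2 was the highest of all 11 under TMM scaling. Scaled by library size alone, WT 1 (500.5 CPM) and WT 3 (492.8 CPM) lay above *Ifnar1* KO 2 (397.5 CPM). WT mice averaged 312 ± 49.95 CPM (SD, n = 3). *Tlr7* KO mice averaged 155 ± 33.8 CPM (SD, n = 5), and the mean of the *Ifnar1* KO mice was 282 ± 101 CPM (SD, n = 3). *Ifnar1* KO mice were 1.81-fold above *Tlr7* KO mice. As sums over the members these values carry no test. Without the 3 libraries that held salivary gland transcripts, WT mice were at 348 and 255 CPM and the remaining *Ifnar1* KO mouse at 232 CPM, all above the highest *Tlr7* KO mouse. Markers of B cells, T cells and lymph node stroma were lower in *Tlr7* KO glands too, with values given beside the B cell genes. In whole-tissue RNA, fewer cells of a type and less RNA per cell cannot be told apart.

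**Figure D1:**
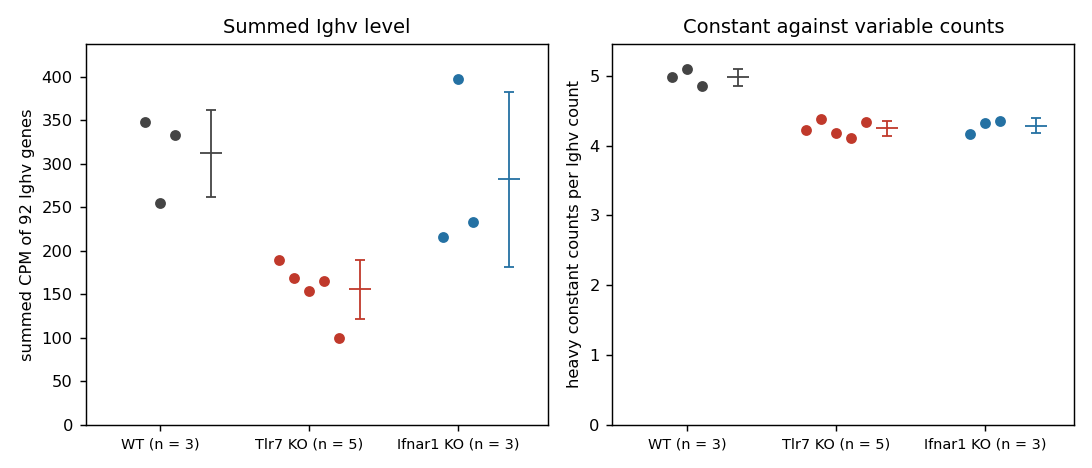
Left, summed CPM of the 92 Ighv genes in each mouse (points) by genotype with mean and SD beside them. Right, counts of the heavy chain constant genes per Ighv count in the same mice, where the 3 WT mice (4.86 to 5.10) lie above all KO mice (4.12 to 4.38); both axes start at 0.

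Gene by gene, 85 of the 92 members had a summed count of at least 30 over all mice and were tested with edgeR's quasi-likelihood test across all genes. In *Tlr7* KO mice 19 of the 85 (22.4%) fell at an adjusted p under 0.05, beside 15.4% of all genes tested, and 0 rose, beside 13.2% of all genes. At an unadjusted p under 0.05, 40 members were lower and 0 higher, where 22.4% and 19% of all genes were. DESeq2 called 27 members lower and 0 higher, where it called 15.5% and 13.3% of all genes. Replicates were separate mice, so p-values measure the spread between them. Scaled by library size alone, which moved the median of all genes to -0.53, 40 members were called lower and 0 higher, beside 26.7% and 0.946% of all genes. All 19 fell by at least 2-fold, which 9.42% of all genes did. The estimate was below 0 for 76 of the 85 members and for 53.2% of all genes, and the median log2 fold change was -1.10 for the members and -0.04 for all genes tested. CPM did not overlap for 19 tested members lower in *Tlr7* KO (22.4%, beside 13.3% of all genes), of which 15 were among those called. With each mouse left out in turn, 16 to 29 members were called, the 29 without WT 2, all of them lower. These fits called 2507 to 6696 of all genes, the 6696 without WT 2, against 4494 with every mouse. Of the 19, *Ighv2-4* and, named after its values were seen, *Ighv1-56* had 20 and 10 counts outside the WT mice and so passed the filter only through WT, and their calls are not read as results. The 7 members below the filter had 6 to 22 counts in all mice together and were not tested.

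**Figure D2:**
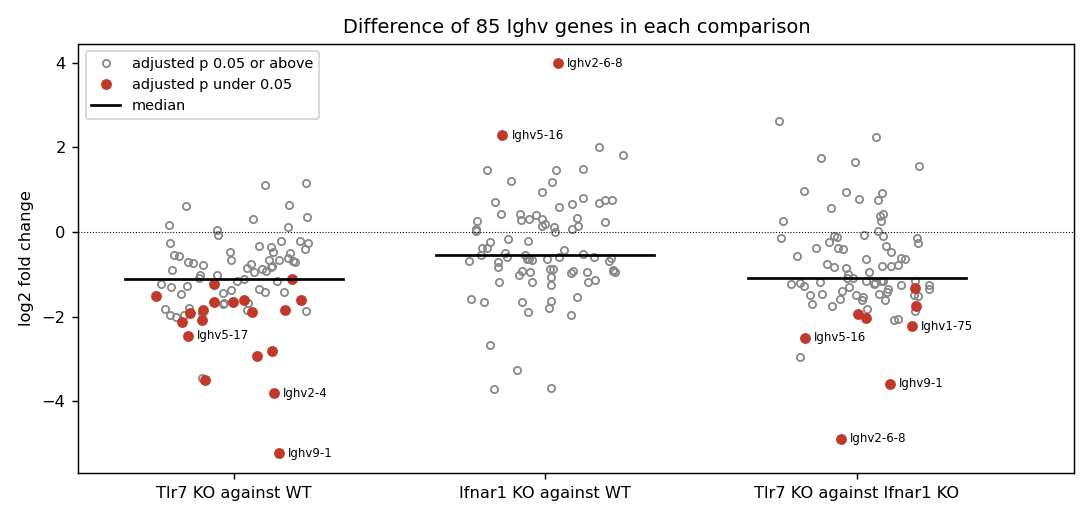
Log2 fold change of the 85 tested Ighv genes in each comparison, with filled points at adjusted p under 0.05 (edgeR) and lines at the medians (-1.10, -0.53 and -1.09). The 19 called genes of *Tlr7* KO against WT all lie below 0, and the 2 called genes of *Ifnar1* KO against WT lie above 0.

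Leaving aside *Ighv2-4* and *Ighv1-56*, the 17 members called lower in *Tlr7* KO mice came from 7 families. Family 1 had 165, 135 and 142 CPM in WT, 93.5, 84.7, 78.0, 73.4 and 44.2 CPM in *Tlr7* KO, and 105, 188 and 130 CPM in *Ifnar1* KO mice. Its *Tlr7* KO mice lay below all others, and 7 of its 43 tested members (16.3%) were called lower with *Ighv1-56* left aside, a share near the 15.4% of all genes. Family 5 had 45.8, 27.1 and 45.9 CPM in WT, 12.4, 10.8, 12.3, 11.5 and 7.29 CPM in *Tlr7* KO, and 27.0, 46.8 and 26.1 CPM in *Ifnar1* KO mice. Its ratio of WT to *Tlr7* KO means, 3.65, was the largest of the 13 families with a tested member, followed by family 14 at 3.32. Family 14 had 13.1, 10.7 and 23.7 CPM in WT, 4.63, 6.24, 4.06, 5.49 and 3.36 CPM in *Tlr7* KO, and 7.96, 26.7 and 6.94 CPM in *Ifnar1* KO mice. Of the 13 families with a tested member, families 1, 3, 4, 5, 9 and 14 were lower in every *Tlr7* KO than in every WT mouse, and 0 were higher. Of all genes taken singly, 13.3% were lower without overlap. Against *Ifnar1* KO mice the families without overlap were 1, 2, 5 and 14, all lower in *Tlr7* KO. Of all genes, 5.09% were lower and 5.39% higher in this way. Between *Ifnar1* KO and WT, 0 of the 13 families were free of overlap, where 19.9% of all genes were lower and 19.3% higher. A family is a sum over its members, so the shares of single genes are not a like measure.

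Families 2, 6, 7, 8, 10, 11 and 15 overlapped between *Tlr7* KO and WT mice. Family 6 had 28.3, 15.8 and 28.3 CPM in WT, 29.4, 18.3, 13.5, 34.3 and 14.3 CPM in *Tlr7* KO, and 18.7, 14.9 and 13.9 CPM in *Ifnar1* KO mice. Its ratio of WT to *Tlr7* KO means was 1.10. Family 2, at a like level in WT (23.8 CPM), had a ratio of 1.94, and 1 *Tlr7* KO mouse, at 16.8 CPM, lay above the lowest WT mouse, at 16.1 CPM. The ratios of families 7, 8 and 10 were 1.16, 1.58 and 1.43, at mean levels of 4.24, 2.06 and 5.77 CPM in WT, and families 11 and 15 had mean levels of 0.292 and 0.0572 CPM. Within family 6, *Ighv6-6* was called lower in *Tlr7* KO mice and *Ighv6-3* was not, as described with the members.

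**Figure D3:**
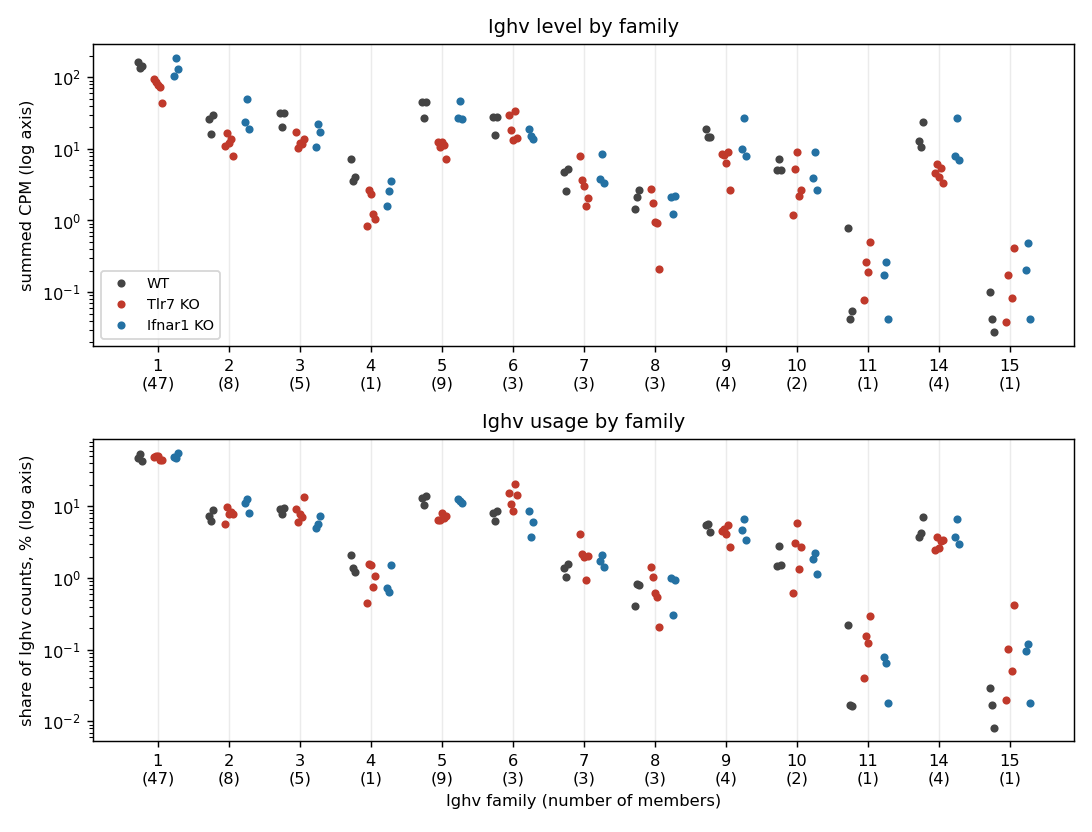
Summed CPM (top) and share of a mouse's Ighv counts (bottom) for each family with a tested member, 1 point per mouse on log axes, with the number of members in parentheses; values of 0 (family 11 in *Tlr7* KO 5 and family 15 in *Tlr7* KO 3) are not drawn. Family 5 is lower in level and share in all *Tlr7* KO mice than in WT, and family 6 is higher in share.

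*Ighv9-1* showed the largest fall of any member in *Tlr7* KO mice. It had 2.04, 2.94 and 1.23 CPM in WT mice, from 45 to 69 counts each. It had 0.153, 0, 0.0380, 0 and 0.0524 CPM in *Tlr7* KO mice, from 4, 0, 1, 0 and 1 counts, and a count of 0 allows up to 0.130 CPM in *Tlr7* KO 2 and 0.124 CPM in *Tlr7* KO 4. It had 0.956, 0.822 and 0.209 CPM in *Ifnar1* KO mice. The 3 genotypes did not overlap, in the order WT, *Ifnar1* KO, *Tlr7* KO. The log2 fold change in *Tlr7* KO against WT was -5.23 (SE 0.62, adjusted p = 0.00098), and in *Ifnar1* KO against WT it was -1.64 (SE 0.53, adjusted p = 0.0731). *Tlr7* KO against *Ifnar1* KO gave -3.59 (SE 0.77, adjusted p = 0.0499). This call was lost under 11 of 18 alternatives, over which the log2 fold change ran from -4.635 to -1.959. Its relative *Ighv9-3*, which differs at the bases shown above, fell with a smaller estimate, and the difference between the members was not tested. It had 15.0, 9.54 and 10.8 CPM in WT and 7.43, 4.94, 4.14, 6.36 and 2.52 CPM in *Tlr7* KO mice, without overlap (log2 fold change -1.22, SE 0.29, adjusted p = 0.0129), and 7.41, 23.6 and 6.81 CPM in *Ifnar1* KO mice.

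In family 6, *Ighv6-6* passed the test in *Tlr7* KO mice and *Ighv6-3* did not. *Ighv6-6* had 13.0, 8.94 and 9.84 CPM in WT, 3.98, 1.73, 2.47, 1.74 and 2.25 CPM in *Tlr7* KO, and 11.4, 8.49 and 5.02 CPM in *Ifnar1* KO mice. All *Tlr7* KO mice lay below all others, and *Ifnar1* KO mice overlapped with WT. It fell by 2.12 on the log2 scale against WT (SE 0.26, adjusted p = 0.00103) and by 1.74 against *Ifnar1* KO (SE 0.29, adjusted p = 0.0229). *Ighv6-3* had 12.4, 6.56 and 17.1 CPM in WT, 25.3, 16.6, 9.72, 32.0 and 11.95 CPM in *Tlr7* KO, and 4.54, 6.24 and 8.86 CPM in *Ifnar1* KO mice. *Tlr7* KO mice overlapped with WT and lay above all *Ifnar1* KO mice. Neither difference passed the test, with log2 fold changes of 0.65 against WT (SE 0.41, adjusted p = 0.269, and -0.09 without the muscle marker libraries) and 1.57 against *Ifnar1* KO (SE 0.39, adjusted p = 0.0880).

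Among members that are abundant in WT glands, *Ighv5-17* had 21.8, 6.52 and 17.2 CPM in WT, 3.18, 1.95, 3.95, 3.35 and 1.52 CPM in *Tlr7* KO, and 4.95, 9.42 and 5.14 CPM in *Ifnar1* KO mice. It was the top member of WT 1, and all *Tlr7* KO mice lay below all others (log2 fold change against WT -2.44, SE 0.38, adjusted p = 0.00265). *Ighv5-9* of the same family had 1.12, 9.88 and 9.49 CPM in WT and 1.76, 0.954, 1.10, 0.372 and 0.629 CPM in *Tlr7* KO mice. It fell by 2.81 on the log2 scale (SE 0.62, adjusted p = 0.0102), but WT 1 was as low as the *Tlr7* KO mice. *Ighv5-9* was at 0.512, 1.46 and 1.30 CPM in *Ifnar1* KO mice, with an adjusted p of 0.0529 against WT. *Ighv3-6*, the member with the highest mean level per kilobase of exon in WT mice (63.6 CPM per kb), had 20.8, 18.1 and 27.9 CPM in WT and 14.7, 7.85, 7.06, 10.2 and 12.5 CPM in *Tlr7* KO mice. It fell by 1.10 on the log2 scale without overlap (SE 0.23, adjusted p = 0.00834), and had 8.98, 18.9 and 16.0 CPM in *Ifnar1* KO mice. Per kilobase *Ighv6-3* had the highest mean in *Tlr7* KO (53.7 CPM per kb) and *Ighv1-26* in *Ifnar1* KO mice (42.7 CPM per kb), close to *Ighv3-6* (41.8 CPM per kb).

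*Ighv1-53*, the top member of WT 2, had 13.6, 24.2 and 9.30 CPM in WT and 8.96, 5.59, 4.90, 5.41 and 2.31 CPM in *Tlr7* KO mice. It fell by 1.52 (SE 0.37, adjusted p = 0.0152), with *Ifnar1* KO mice at 4.51, 15.5 and 5.89 CPM. *Ighv1-47* fell by 2.93 (SE 0.58, adjusted p = 0.00636), from 0.848, 0.554 and 2.41 CPM in WT to 0.0413 to 0.266 CPM in *Tlr7* KO mice. It has no close relative in the annotation, its nearest gene being 84.6% identical, so its reads were less open to splitting. *Ighv4-1*, the sole member of family 4 in the table, fell by 1.61 (SE 0.39, adjusted p = 0.0138), from 7.33, 3.58 and 3.99 CPM to 0.842 to 2.64 CPM. *Ighv2-4*, which passed the filter only through WT, had 72.4% of its CPM over all mice in WT 3, at 3.17 CPM, and its call was lost without that mouse and without *Tlr7* KO 1, 2, 3 or 5. The calls of *Ighv4-1* and *Ighv9-3* were lost without WT 1, and those of *Ighv1-53*, *Ighv4-1* and *Ighv9-3* without the muscle marker libraries, which leaves 1 WT mouse with its spread taken from the *Tlr7* KO mice (*Ighv1-53* log2 fold change -0.74, adjusted p = 0.295). Among the abundant members *Ighv1-26* and *Ighv1-72* were not called. *Ighv1-26* had 11.7, 10.9 and 19.6 CPM in WT and 18.5, 11.2, 9.19, 4.79 and 4.56 CPM in *Tlr7* KO mice, overlapping (adjusted p = 0.350).

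**Figure D4:**
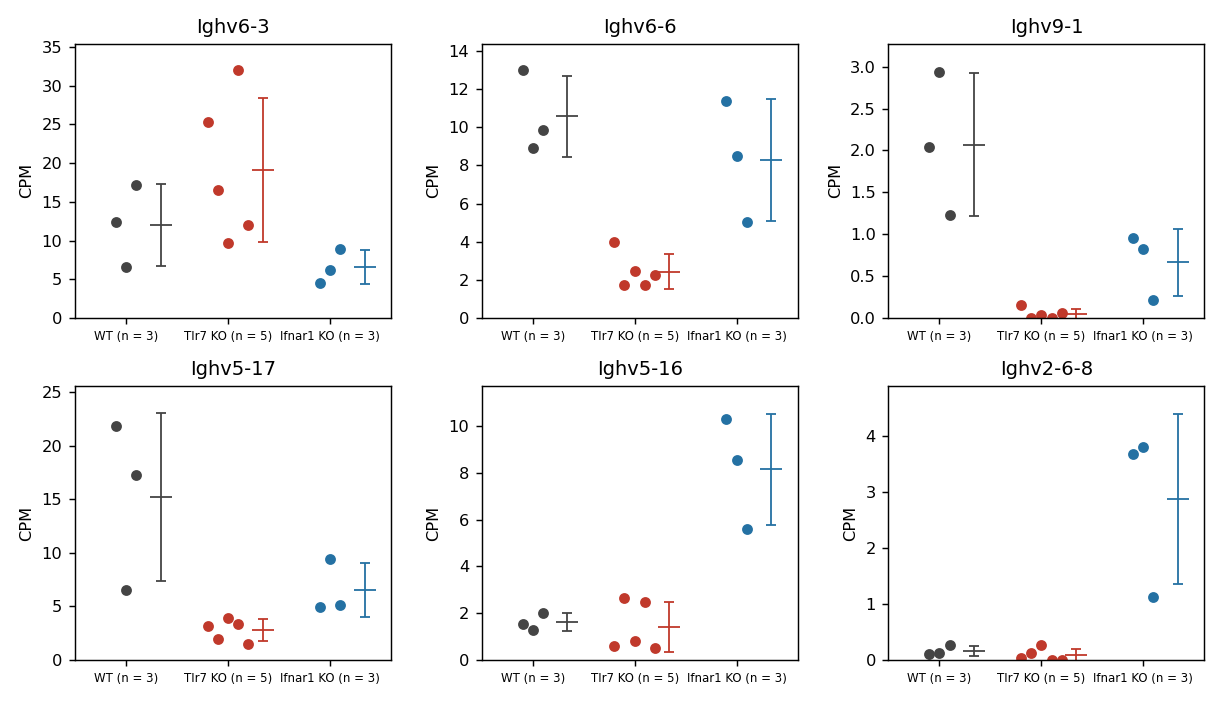
CPM of 6 Ighv genes in each mouse (points) with mean and SD; each axis starts at 0 and has its own scale. *Ighv6-6*, *Ighv9-1* and *Ighv5-17* are lower in all *Tlr7* KO mice than in WT, *Ighv6-3* overlaps with WT, and *Ighv5-16* and *Ighv2-6-8* are highest in the 3 *Ifnar1* KO mice.

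*Ifnar1* KO against WT gave a different picture. Of the 85 members 0 were called lower, beside 10.9% of all genes tested, and 2 were called higher (2.35%), beside 5.73% of all genes. At an unadjusted p under 0.05, 15 members were lower and 4 higher, where 20.4% and 14.5% of all genes were, DESeq2 called 6 lower and 4 higher, beside 13.1% and 7.6% of all genes, and scaling by library size alone gave 1 lower and 2 higher, beside 8.17% and 0.356%. The estimate was below 0 for 51 of 85 members and for 51.5% of all genes, and the median log2 fold change was -0.53 for the members and -0.02 for all genes. CPM did not overlap for 5 tested members lower and 4 higher in *Ifnar1* KO, where 19.9% and 19.3% of all genes did so.

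The 2 members called higher were *Ighv5-16* and *Ighv2-6-8*. *Ighv5-16* had 1.56, 1.28 and 2.02 CPM in WT, 0.613, 2.64, 0.797, 2.48 and 0.524 CPM in *Tlr7* KO, and 10.3, 8.52 and 5.60 CPM in *Ifnar1* KO mice. *Ighv2-6-8* had 0.102, 0.128 and 0.273 CPM in WT (3 to 10 counts), 0.0383, 0.130, 0.266, 0 and 0 CPM in *Tlr7* KO, and 3.69, 3.81 and 1.13 CPM in *Ifnar1* KO mice. For both genes all 3 *Ifnar1* KO mice lay above the 8 other mice. *Ighv5-16* rose by 2.29 on the log2 scale (SE 0.28, adjusted p = 0.0199). *Ighv2-6-8* had 27 counts in the 8 mice outside the *Ifnar1* KO group and passed the filter of 30 only through that group, so its levels are given as a description and its call is not read as a result. With a filter on WT counts it was not tested. Both calls were lost without the 3 libraries that held salivary gland transcripts, which leaves 1 *Ifnar1* KO mouse that is assumed to vary as the WT mice do (log2 fold change 1.96 with adjusted p = 0.0825 for *Ighv5-16*). Both were also lost without WT 1, without *Ifnar1* KO 1 and without *Ifnar1* KO 3, fits that called 13, 0 and 0 of all genes tested against 2626 with every mouse, and that of *Ighv2-6-8* without the muscle marker libraries, with 1 WT mouse left. Leaving out WT 2 gave 7 called members, 4 lower and 3 higher, in a fit that called 4639 of all genes. Leaving out *Ifnar1* KO 2 gave 6, 4 lower and 2 higher, in a fit that called 1586 of all genes. The log2 fold change of *Ighv5-16* stayed between 1.96 and 2.49 over the alternatives. *Ighv5-16* was not called between *Tlr7* KO and WT (adjusted p = 0.796).

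*Tlr7* KO compared directly with *Ifnar1* KO mice had 8 of 85 members lower (9.41%), beside 0.724% of all genes tested, and 0 higher, beside 0.857%. At an unadjusted p under 0.05, 33 were lower and 3 higher, where 6.9% and 8.47% of all genes were. DESeq2 called 16 lower and 2 higher, beside 1.56% and 2.11% of all genes. The median log2 fold change was -1.09 for the members and 0.02 for all genes, and 69 of 85 estimates were below 0, as were 47.1% of those of all genes. CPM did not overlap for 15 tested members lower in *Tlr7* KO (17.6%, beside 5.09% of all genes) and for 2 higher, *Ighv6-3* and, named after its values were seen, *Ighv7-1*, where 5.39% of all genes were. The 3 comparisons share mice with each other, so their calls are not independent. Without the libraries that held salivary gland transcripts, 2 members were called, both lower, with a single *Ifnar1* KO mouse left, and 1 of them was among the 8. Of the 8 calls, 2 were kept without *Tlr7* KO 3, and 4 each without *Tlr7* KO 4, *Tlr7* KO 5 or *Ifnar1* KO 1. These fits called 89, 106, 94 and 89 of all genes, in the same order, against 249 with every mouse.

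The called members were *Ighv2-6-8*, *Ighv5-16*, *Ighv9-1*, *Ighv6-6*, *Ighv1-75*, *Ighv5-6*, *Ighv14-3* and, outside the naming rule, *Ighv1-55*. The call of *Ighv2-6-8* again rests on a filter passed through the *Ifnar1* KO mice. *Ighv5-16* had a log2 fold change of -2.50 (SE 0.46, adjusted p = 0.0308) in *Tlr7* KO against *Ifnar1* KO. *Ighv1-75* had 3.69, 11.9 and 5.89 CPM in *Ifnar1* KO and 2.11, 1.30, 1.59, 1.61 and 0.891 CPM in *Tlr7* KO mice, with WT at 3.36, 1.45 and 2.57 CPM. Its log2 fold change was -2.22 (SE 0.36, adjusted p = 0.0173), a call lost under 1 of 18 alternatives. *Ighv5-6* had 6.25, 7.74 and 7.94 CPM in *Ifnar1* KO and 3.41, 1.13, 1.18, 2.19 and 0.734 CPM in *Tlr7* KO mice, a difference of -2.04 (SE 0.37, adjusted p = 0.0290). Its WT values, 7.56, 3.71 and 1.48 CPM, spanned both groups. *Ighv14-3* had 4.58, 16.9 and 5.14 CPM in *Ifnar1* KO and 1.69, 2.73, 3.19, 2.23 and 1.68 CPM in *Tlr7* KO mice, a difference of -1.93 (SE 0.41, adjusted p = 0.0499). *Ighv1-55*, named after its values were seen, was lower too, with a log2 fold change of -1.32 (adjusted p = 0.00758, and 0.0615 without the salivary marker libraries). *Ighv2-3*, the top member of *Ifnar1* KO 2, had 7.34, 24.4 and 3.18 CPM in *Ifnar1* KO and 0.574, 0.824, 0.759, 2.56 and 2.99 CPM in *Tlr7* KO mice, without overlap but with an adjusted p of 0.0571. The calls of *Ighv5-16*, *Ighv6-6*, *Ighv5-6* and *Ighv14-3* in this comparison were lost under 6, 6, 8 and 10 of 18 alternatives. Their log2 fold changes over the alternatives ran from -2.86 to -1.99, -2.01 to -1.04, -2.45 to -1.66 and -2.25 to -1.06, in the same order. Among the alternatives that lost these calls was the one without the salivary marker libraries, where that of *Ighv2-6-8* was lost as well, with a single *Ifnar1* KO mouse left.

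Usage, the share of a mouse's Ighv counts that a member takes, does not depend on the scaling of the libraries. In WT mice family 1 took 47.7% ± 5.15 (SD, n = 3). The *Tlr7* KO mice gave it 47.8% ± 3.19 (SD, n = 5) and the *Ifnar1* KO mice 50.6% ± 4.58 (SD, n = 3), and the groups overlapped. Family 5 took 13.1%, 10.6% and 13.8% in WT, 6.53%, 6.38%, 8.02%, 6.96% and 7.32% in *Tlr7* KO, and 12.5%, 11.8% and 11.2% in *Ifnar1* KO mice. Its share was lower in every *Tlr7* KO mouse than in all others, and in the second count table it was again lower in *Tlr7* KO (6.41% to 9.96%) than in WT mice (10.6% to 13.8%) but overlapped with *Ifnar1* KO mice (9.71% to 10.9%). Family 6 took 8.13%, 6.21% and 8.50% in WT, 15.5%, 10.8%, 8.76%, 20.7% and 14.3% in *Tlr7* KO, and 8.68%, 3.75% and 5.97% in *Ifnar1* KO mice. Its share was higher in every *Tlr7* KO mouse than in all others, although in the second table *Tlr7* KO (6.404% to 17.7%) overlapped with WT (5.78% to 7.62%). Family 14 took 3.76%, 4.19% and 7.10% in WT and 2.45% to 3.69% in *Tlr7* KO mice without overlap, which did not hold in the second table. Family 3 took 9.08%, 7.85% and 9.54% in WT and 4.99%, 5.65% and 7.32% in *Ifnar1* KO mice, again without overlap.

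In *Tlr7* KO mice most of the family 6 share was *Ighv6-3*. This member took 3.57%, 2.57% and 5.15% of Ighv counts in WT mice. It took 13.4%, 9.79%, 6.32%, 19.3% and 12.01% in *Tlr7* KO mice and 2.11%, 1.57% and 3.81% in *Ifnar1* KO mice. Every *Tlr7* KO mouse lay above every other mouse, and the second count table gave the same order, with 5.09% to 16.8% in *Tlr7* KO, 2.29% to 4.06% in WT and 1.22% to 3.28% in *Ifnar1* KO mice. It was the top member of 4 of the 5 *Tlr7* KO mice, with a share of 19.3% in *Tlr7* KO 4 (exact Clopper-Pearson 95% interval 18.1% to 20.6%, for counting error only), and *Tlr7* KO 5 had *Ighv3-6* on top at 12.5% (11.1% to 14.1%). The 3 WT mice each had another top member, *Ighv5-17* at 6.25%, *Ighv1-53* at 9.48% and *Ighv3-6* at 8.37%, and so did the 3 *Ifnar1* KO mice, with *Ighv1-78* at 5.81%, *Ighv2-3* at 6.14% and *Ighv1-26* at 8.18%. A share rises also when other members fall, and the level of *Ighv6-3* in *Tlr7* KO mice overlapped with WT.

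**Figure D5:**
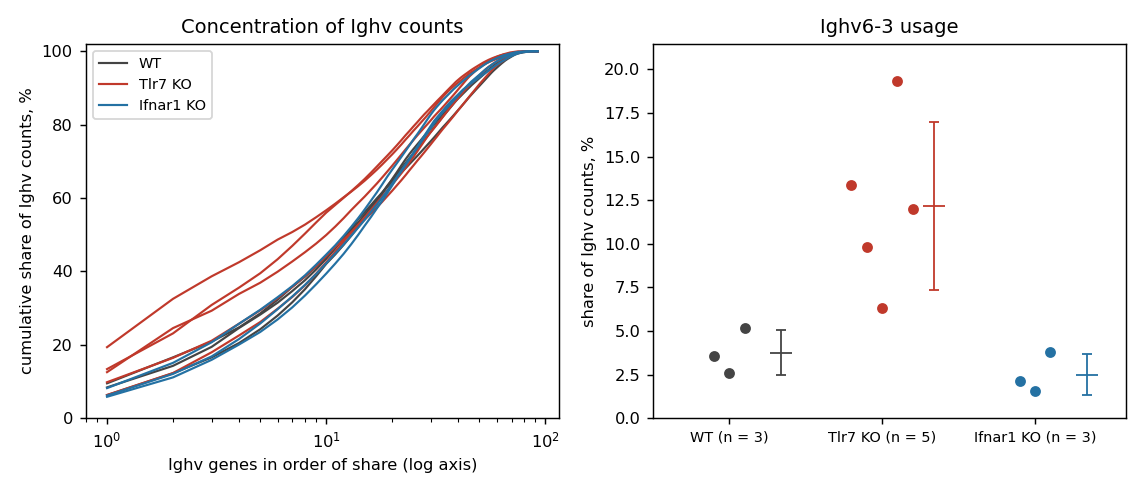
Left, cumulative share of Ighv counts against the number of members in order of share (log axis), 1 line per mouse. Right, share of *Ighv6-3* in each mouse with mean and SD on an axis from 0, where the 5 *Tlr7* KO mice (6.32% to 19.3%) lie above the 6 other mice (1.57% to 5.15%).

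Ighv counts were more concentrated in some *Tlr7* KO mice. The effective number of members (the inverse of the chance that 2 counts fall on the same member) was 36.7, 32.2 and 34.3 in WT, 21.0, 32.9, 36.4, 14.7 and 22.4 in *Tlr7* KO, and 38.5, 36.5 and 31.6 in *Ifnar1* KO mice. *Tlr7* KO 1, 4 and 5 lay below all other mice and *Tlr7* KO 2 and 3 within their range, so the groups overlapped. In *Tlr7* KO 4 the top 5 members took 45.8% of Ighv counts, among them *Ighv1-72* at 13.2%, and in the WT mice the top 5 took 24.2% to 28.5%. *Ighv1-72* was at 21.8 CPM in that mouse and at 1.94 to 5.78 CPM in the 4 other *Tlr7* KO mice. The number of members with a count was 86 to 91 in WT, 75 to 85 in *Tlr7* KO and 82 to 89 in *Ifnar1* KO mice, but it depends on depth. At the 1899 Ighv counts of the shallowest mouse, 79.6 to 82.2 members would be expected in WT, 75.0 to 80.7 in *Tlr7* KO and 76.2 to 81.8 in *Ifnar1* KO mice, and all groups overlapped. A count in all 11 mice was found for 65 members.

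Rare members added little. *Ighv11-2*, of a family known from B-1 cells, had 0.780, 0.0426 and 0.0547 CPM in WT, 0 to 0.496 CPM in *Tlr7* KO and 0.0418 to 0.262 CPM in *Ifnar1* KO mice, and was not called (adjusted p = 0.744 against *Tlr7* KO). *Ighv15-2* had 0.0273 to 0.102 CPM in WT, 0 to 0.419 CPM in *Tlr7* KO and 0.0418 to 0.486 CPM in *Ifnar1* KO mice and was not called. *Ighv12-3* had 8 counts in all mice together, 7 of them in WT, and no mouse had more than 3.

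Position along the locus did not separate the genotypes. The 46 members nearest the constant genes (chr12:113578504-114584002) took 49.97% to 59.2% of Ighv counts in WT, 54.0% to 59.6% in *Tlr7* KO and 49.8% to 59.4% in *Ifnar1* KO mice. With *Ighv2-4* and *Ighv1-56* left aside, 17 members were called lower in *Tlr7* KO mice. Of these, 10 lay here among 45 tested members, and 7 in the distal stretch (chr12:114615850-116000461) among 40. Of all genes 15.4% were called lower, and the difference between the stretches was not tested.

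The other genes of the antibody were set against the Ighv counts of the same mouse. Counts of the 7 heavy chain constant genes in the table per Ighv count were 4.98, 5.10 and 4.86 in WT, 4.23, 4.38, 4.18, 4.12 and 4.33 in *Tlr7* KO, and 4.16, 4.33 and 4.36 in *Ifnar1* KO mice. All 3 WT mice lay above all 8 KO mice, also in the second count table, where WT had 7.09 to 7.88 and the KO mice 5.48 to 6.90. Igkv counts of the light chain kappa variable genes were 1.15 to 1.47 per Ighv count in WT, 1.04 to 1.18 in *Tlr7* KO and 1.12 to 1.18 in *Ifnar1* KO mice, which overlapped.

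Of the 7 constant genes in the table, 6 were called lower in *Tlr7* KO mice and 1, *Ighg2b*, in *Ifnar1* KO mice, beside 15.4% and 10.9% of all genes. *Ighg2b*, of an IgG isotype, fell from 72.7 CPM in WT to 2.15 CPM in *Tlr7* KO mice (log2 fold change -5.11, adjusted p = 2.65e-05) and to 23.5 CPM in *Ifnar1* KO mice (-1.66, adjusted p = 0.0433). *Igha*, of the IgA isotype, made up most of the constant RNA, with 1140 CPM in WT, 607 CPM in *Tlr7* KO and 1126 CPM in *Ifnar1* KO mice on average. It fell by 0.92 on the log2 scale in *Tlr7* KO (adjusted p = 0.00691) and differed by -0.04 in *Ifnar1* KO mice (adjusted p = 0.928). *Ighg2c*, of an IgG isotype known for its link to interferon and TLR7 signals, was at 40.0 CPM in WT, 0.182 CPM in *Tlr7* KO and 12.4 CPM in *Ifnar1* KO mice. It fell by 7.92 in *Tlr7* KO (SE 0.43, adjusted p = 2.65e-05), and its difference of -1.72 in *Ifnar1* KO did not pass (adjusted p = 0.0660). *Ighm*, the IgM isotype carried by naive B cells, was at 285, 42.3 and 38.7 CPM in the 3 genotypes, and it fell by 2.76 in *Tlr7* KO (adjusted p = 0.000608). Its difference of -2.92 in *Ifnar1* KO did not pass (adjusted p = 0.0727).

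Genes of B cells had lower median log2 fold changes than the Ighv genes, a difference that was not tested. All 16 genes of the list of receptor components and B cell genes, such as *Cd79a*, fell in *Tlr7* KO (median log2 fold change -3.30) and all 16 in *Ifnar1* KO mice (median -4.26), where Ighv medians were -1.10 and -0.53. *Cd79a*, a signalling chain of the B cell receptor, was at 67.3 CPM in WT, 6.74 CPM in *Tlr7* KO and 4.23 CPM in *Ifnar1* KO mice. The list summed to 122 to 428 CPM in WT, 10.5 to 78.5 CPM in *Tlr7* KO and 4.18 to 33.0 CPM in *Ifnar1* KO mice. Of 13 plasma cell genes, 4 fell and 3 rose in *Tlr7* KO mice and 2 fell and 2 rose in *Ifnar1* KO mice. *Jchain*, which joins IgA and IgM into polymers, was at 311, 124 and 252 CPM in WT, *Tlr7* KO and *Ifnar1* KO mice. It fell by 1.34 in *Tlr7* KO (adjusted p = 0.000912) but was not called in *Ifnar1* KO mice (-0.33, adjusted p = 0.388). The 2 that fell in *Ifnar1* KO mice were *Mzb1* (-1.25, adjusted p = 0.0346) and *Slamf7* (-2.06, adjusted p = 0.0240). Both also fell in *Tlr7* KO mice (-1.84, adjusted p = 0.000632, and -1.39, adjusted p = 0.0166). *Sdc1* and *Derl3*, which are also epithelial and secretory genes, rose in both. T cell markers fell too, with 7 of 8 called in each KO group. Lymph node stroma markers, 2 of 3 in the table, summed to 4.17 to 8.28 CPM in WT, 0.124 to 1.69 CPM in *Tlr7* KO and 0.0418 to 2.19 CPM in *Ifnar1* KO mice. *Glycam1*, the marker of that list that was tested, fell by 3.15 in *Tlr7* KO (adjusted p = 0.00484) and differed by -2.19 in *Ifnar1* KO mice (adjusted p = 0.0891). *Ccl21a*, which was below the filter, had 4, 1 and 13 counts in WT, 0 in every *Tlr7* KO mouse and 0, 1 and 0 in *Ifnar1* KO mice. The part of B cells, T cells and lymph node stroma in the lower Ighv levels was not tested. Of 15 tested genes of recombination, class switching and hypermutation, 1 fell and 3 rose in *Tlr7* KO mice, and 0 fell and 2 rose in *Ifnar1* KO mice. Of all genes, 15.4% fell and 13.2% rose in *Tlr7* KO and 10.9% fell and 5.73% rose in *Ifnar1* KO mice, and with 13 and 15 genes a list the counts of these and of the plasma cell genes are not read as a result. Of 3 listed octamer genes, *Pou2f2* and *Pou2af1* were called lower in both KO groups. They encode an octamer-binding factor and its B cell coactivator that act on variable gene promoters. *Pou2f1*, also on that list, was called neither in *Tlr7* KO (log2 fold change -0.38, adjusted p = 0.0855) nor in *Ifnar1* KO mice (-0.25, adjusted p = 0.551). *Pou2f2* averaged 3.19 CPM in WT and 0.640 CPM in *Tlr7* KO mice, and *Pou2af1* 11.6 and 3.11 CPM. The part of cell numbers in these differences was not tested.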

How the data were processed

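Whole-gland RNA was sequenced and quantified by the authors against mm10 (GRCm38). The main table has whole numbers for 19058 genes, which were taken to be the estimated counts from salmon. It is named as normalized, but its totals differed between libraries, and it was tested as counts. Differing totals alone do not settle whether it had been scaled before, which was not tested. A second deposited count table of 39017 genes was made after alignment with HISAT2 (2.1.0), its counter is not given in the sources used here, and it served as an alternative, with 1 column of no listed sample not used.

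Counts were tested with edgeR (4.0.16) in R (4.3.3) by the quasi-likelihood test with TMM scaling, in a separate fit for each pair of groups, leaving out genes with fewer than 30 counts in all libraries together, with Benjamini-Hochberg adjustment over all genes and a threshold of 0.05. SE is the log2 fold change divided by the root of F. Scripts were tested on simulated data. A count of 0 allows up to 3 counts, which is 0.0820 to 0.157 CPM. Summed levels, families and shares carry no test. Confidence intervals are at 95%.

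Replicate numbers were checked for pairing and were not used in the reported fits. The members and lists were chosen with earlier results of these data known. Named members were the 5 with the highest level in each group, the top member of each mouse, for each comparison and direction the 6 called members of largest fold change (at least 2-fold, and reaching a mean of 1 CPM where higher), and single-member families. DESeq2 (1.42.0), other scalings, filters, the second table and each mouse left out were alternatives. Annotation and variable exon sequences came from GENCODE M21.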

Additional observations from a re-analysis of the deposited data

Results flagged for a closer look

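Among the 5 *Tlr7* KO mice, 6 of 81 values checked held a mouse far from the others. Chance would give about 1 in 20 for separate values chosen without sight of the data. That rate does not apply here, as members were named by their levels and some values repeat each other. *Ighv1-72* was at 21.8 CPM and took 13.2% of Ighv counts in *Tlr7* KO 4, and the next mice were at 5.78 CPM and 3.21%. *Tlr7* KO 4 also held muscle transcripts (193 CPM), whose part in this was not tested. *Ighv1-78* was at 7.24 CPM in *Tlr7* KO 1 and at no more than 2.36 CPM in the 4 others. *Tlr7* KO 5, which had the fewest Ighv counts (1899), had 75 members with a count, against 83 to 85 in the others. In the same mouse *Ighv15-2*, and with it family 15, took 0.421% of Ighv counts, from 8 counts.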

How the results depend on the processing

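The number of members called, as a new total over those tested under each setting, was 19 in *Tlr7* KO against WT (4494 of all genes). It was 40 with library size only (4352 of all genes) and 16 to 29 with each mouse left out (2507 to 6696 of all genes). A replicate block gave 0 (20 of all genes). That fit kept only numbers found in both groups, so it also left out *Tlr7* KO 4 and 5. In *Ifnar1* KO against WT the number was 2, DESeq2 called 10, a filter on WT counts left 1, all 11 mice in 1 fit gave 5, the replicate block 0 (0 of all genes), 5 were called in the second table, near-identical members summed 1, no salivary marker libraries 1, no muscle marker libraries 6, and each mouse left out 0 to 7. Of all genes 2626 were called there, 3262 with DESeq2, 5079 with all 11 mice in 1 fit, 2495 in the second table and 0 to 4639 with each mouse left out. In *Tlr7* KO against *Ifnar1* KO the number was 8, all lower. The total came to 18 with DESeq2 (16 lower, 2 higher) and 15 with the replicate block (14 lower, 1 higher). It was 5 with all 11 mice in 1 fit, 3 with near-identical members summed, 4 without muscle marker libraries and 2 to 8 with each mouse left out, all lower. Of all genes 249 were called in this comparison. DESeq2 called 579, the replicate block 498 and all 11 mice in 1 fit 95. Near-identical members summed gave 243 of all genes, no muscle marker libraries 106, and each mouse left out 87 to 881. Without salivary marker libraries, with 1 *Ifnar1* KO mouse left, the median log2 fold change of the members was -0.62, against -1.09 with every mouse. The summed level in *Tlr7* KO minus WT (-1.03 on the log2 scale) was -1.50 with library size only. The family 1 share in *Tlr7* KO mice (47.8%) was 43.8% in the second table and 51.4% without *Ighv3-6*. The cause of these shifts was not tested. No call of a named member reversed direction. This was not checked for the other called members or with near-identical members summed. Log2 estimates of named members not called in a comparison changed sign under some settings. In *Tlr7* KO against WT, without muscle marker libraries, *Ighv6-3* was at -0.090, *Ighv1-78* at 0.25, *Ighv5-6* at 0.16 and *Ighv11-2* at 1.25, and *Ighv11-2* ran from -1.09 to 1.96 with each mouse left out. In *Ifnar1* KO against WT, library size only gave *Ighv1-26* -0.32, *Ighv9-3* -0.27 and *Ighv14-3* -0.16, and the replicate block gave *Ighv1-26* -0.013 and *Ighv9-3* -0.16. There, *Ighv9-3* was at -0.87, *Ighv2-3* at -0.46, *Ighv1-78* at -0.22 and *Ighv15-2* at -0.78 without salivary marker libraries, and *Ighv1-26* at -0.41, *Ighv1-72* at 0.0064, *Ighv14-3* at -0.49 and *Ighv11-2* at 1.45 without muscle marker libraries. With each mouse left out, *Ighv1-26* ran from -0.17 to 0.42, *Ighv9-3* from -0.75 to 0.36, *Ighv14-3* from -0.59 to 0.88 and *Ighv11-2* from -1.41 to 1.58. In *Tlr7* KO against *Ifnar1* KO, the replicate block gave *Ighv1-72* -0.30 and *Ighv5-9* 0.27, the second table *Ighv5-9* 0.57, no salivary marker libraries *Ighv15-2* 1.54, and no muscle marker libraries *Ighv1-72* -0.60, *Ighv5-9* 0.058 and *Ighv11-2* -0.23. With each mouse left out, *Ighv1-53* ran there from -0.96 to 0.086, *Ighv1-72* from -0.60 to 0.67, *Ighv2-4* from -1.19 to 0.13, *Ighv5-9* from -0.50 to 0.13, *Ighv11-2* from -0.23 to 0.89 and *Ighv15-2* from -1.72 to 0.053. Summing near-identical members and leaving out marker libraries were chosen after seeing the data, and without muscle marker libraries WT is a single mouse, assumed to vary like the other group. In *Tlr7* KO against WT, 18 of the 19 members were shared with DESeq2, 16 with the second table and 13 without muscle marker libraries. In *Ifnar1* KO against WT both members were shared with DESeq2 and 1 without muscle marker libraries. Samples share only a replicate number. Same-number correlations of deviations ran from -0.33 to 0.029 between WT and *Tlr7* KO mice and from -0.38 to -0.14 between WT and *Ifnar1* KO mice. Between *Ifnar1* KO and *Tlr7* KO mice they ran from 0.047 to 0.27. There each *Ifnar1* KO mouse correlated best with its own number, but *Tlr7* KO 1 did not. Whether the numbers pair these mice is not settled. Members near 0.0820 to 0.157 CPM, the level of 3 counts, are beyond this depth.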
